A study of Mus musculus with 4 samples.

Results

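The promoters of Peg3, Snrpn, Mest, Plagl1, Impact, Zrsr1, Peg10, Nnat, Kcnq1ot1 and Airn carry methylation imprints laid down in the oocyte. These 10 genes were chosen by name, as well-known loci of this kind, and each was scored over the CpGs within 1 kb on each side of its annotated start site. CpGs counted when at least 5 reads covered them in all 4 libraries. The 10 windows stand beside 48389 autosomal genes whose start windows held at least 3 such CpGs, of 51229 autosomal genes annotated.

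At an imprinted promoter of this kind the copy inherited from the mother is methylated and silent, while the paternal copy is unmethylated and transcribed. The mark is set while the oocyte grows and is kept through the early embryo by the zinc finger proteins ZFP57 and ZFP445, which bind methylated DNA at these loci and recruit TRIM28 and the maintenance methyltransferase DNMT1. TET1, an enzyme that oxidises methylcytosine, takes part in the erasure of imprints in primordial germ cells. An intact imprint in a tissue is therefore read as a level of 50% in bulk DNA, with the methylated reads coming from the maternal copy.

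Methylation came from whole-genome bisulfite sequencing of the brain, dissected from forebrain to hindbrain, of male mouse embryos at E11.5. The strain was 129S6.cg Tet1<tm1Koh>, with a Tet1 knockout allele of C57BL/6 origin crossed into 129S6. The cassette of that allele sits at the first coding ATG of Tet1, and the study describes low transcript levels of a short Tet1 isoform that remain in knockout brains. By Western blot it detected neither full-length nor short TET1 protein in wild-type or knockout brains of this stage. The 4 libraries, of 1 embryo each, were Tet1 knockout (KO) and wild type (WT) from dams fed 30 ppm folic acid (FA), the excess diet, here named KO30 and WT30, and the same genotypes from dams fed 3 ppm, the control diet, named KO3 and WT3. All dams were Tet1 heterozygous and all custom diets contained succinylsulfathiazole, an antibiotic that limits bacterial folate. The study's list of embryos marks both KO embryos as having neural tube defects and the WT ones as normal, and all 4 come from different litters. With 1 embryo per group, genotype, diet, phenotype, litter and the individual embryo cannot be told apart, and each test between 2 libraries compares those libraries, not the conditions. Mean depth per autosomal CpG was 13.2 to 21.2 reads, lowest in KO30 and highest in KO3. The level over all CpGs was 81.4 to 83.5%, and 0.914 to 0.938% on mitochondrial DNA, an estimate of failed conversion. The tables hold no expression, so the tissue label was not checked against marker genes. Bisulfite does not separate methylcytosine from hydroxymethylcytosine, and no parental allele was read. The brain holds many cell types, so a change in every cell and a change in some of them cannot be told apart.

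The first question was where the windows sat. For Peg3, Zrsr1, Peg10, Nnat, Kcnq1ot1 and Airn the window of the gene-level start, the 5′ end of the gene record, covered or overlapped the CpG-rich promoter. For Snrpn, Mest, Plagl1 and Impact it lay at an upstream exon: the Snrpn window at chr7:60139219-60141219 held 8 reference CGs and the Mest window at chr6:30722547-30724547 held 18. A second window was therefore taken for every gene, around the annotated transcript start with the most reference CGs within 1 kb (the CpG-densest start). It was chosen after seeing the data, though methylation played no part in it. It holds 48 CGs at Snrpn, on the minus strand at chr7:60004111-60006111, and 110 at Mest, on the plus strand at chr6:30737050-30739050. Over the 10 genes it holds 48 to 135 reference CGs, of which 18 to 89 were covered in all libraries, and 48425 genes had a scored window of this kind. Coverage was uneven, from 18 of 83 CGs at Airn and 23 of 93 at Peg3 to 88 of 110 at Mest, and the levels speak for the covered CpGs only. Positions are of mouse build mm10 (GRCm38), with GENCODE vM21 annotation.

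ZFP57 reads the hexamer TGCCGC when its CG is methylated, and these sites show which bases of the promoters the imprint is thought to rest on. Searched on both strands, the hexamer occurred in all 10 windows around the CpG-densest starts, with 57 sites in all and 2 (Zrsr1, Peg10) to 12 (Mest) per window. By comparison, 31.0% of all 51229 windows of that kind held at least 1 site, and 57.9% of the 13899 other windows with 48 to 135 reference CGs did. At least 3 sites were present at 8 of the 10 genes and in 8.13% of those 13899 windows. Around the gene-level starts only 5 of the 10 windows held a site, beside 29.6% of all windows. A match of letters is not a measured binding site. The lines below show 1 covered site per gene, in 30 bases of the GRCm38 reference read 5′ to 3′ on the strand of the hexamer, which is in capitals.
Snrpn, chr7:60005120-60005125, plus strand: ctgcgctagtctTGCCGCaatggctcaggt
Mest, chr6:30738354-30738359, plus strand: gctgccagcccgTGCCGCcagagggggtgt
Plagl1, chr10:13091064-13091069, plus strand: gtggcatagccgTGCCGCgacgggatgggt
Peg10, chr6:4747924-4747929, plus strand: tgcactcttaagTGCCGCgctacgaacgga
Nnat, chr2:157560337-157560342, plus strand: ccatatcgcgatTGCCGCccctacccaacc
Kcnq1ot1, chr7:143295704-143295709, minus strand: agaggtgattcgTGCCGCgctttcgcggct
Airn, chr17:12741451-12741456, minus strand: ctcccctcgcatTGCCGCgcttcacgcggg

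Of the 57 sites, 30 had at least 5 reads in all 4 libraries, and their pooled level was 63.5% in KO30, 65.9% in WT30, 57.7% in KO3 and 51.9% in WT3. WT30 was the highest library and WT3 the lowest, as for the medians of the whole windows. The 4 covered sites of Nnat stood at 37.5% in KO30, 71.4% in WT30, 50% in KO3 and 44% in WT3, from 24 to 50 reads, and the 1 covered site of Airn at 37.5%, 100%, 69.2% and 50%, from 5 to 13 reads. None of the sites in the windows of Peg3 and Zrsr1 had 5 reads in all libraries.

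Levels are given below in the order KO30, WT30, KO3 and WT3, as methylated reads over all reads of the covered CpGs. Beginning with the long noncoding RNAs that silence neighbouring genes, Kcnq1ot1, which lies antisense within Kcnq1 (chr7:143295549-143297549, minus strand, 62 CpGs), stood at 54.3%, 59.3%, 59.1% and 53.0%. It had the narrowest range of the 10, at 6.33 points. Airn, antisense to the growth factor scavenger receptor gene Igf2r (chr17:12740385-12742385, plus strand, 18 CpGs), stood at 53.4%, 69.0%, 60.9% and 62.7%.

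Nnat and Zrsr1 are short genes that sit in introns of host genes. Nnat, a membrane proteolipid of developing neurons within Blcap (chr2:157560009-157562009, plus strand, 45 CpGs), stood at 52.9%, 63.9%, 59.8% and 46.9%. Zrsr1, a retrogene of a splicing factor within Commd1 (chr11:22972215-22974215, plus strand, 37 CpGs), stood at 57.6%, 64.5%, 64.2% and 56.0%. In both genes WT3 was the lowest library and WT30 the highest, though at Zrsr1 the latter and KO3 were level within their intervals.

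Peg3 and Plagl1 encode zinc finger proteins that restrain cell growth. Peg3 (chr7:6729419-6731419, minus strand, 23 CpGs) stood at 52.9%, 55.2%, 47.5% and 41.5%, the lowest mean of the 4 libraries at 49.3%, and both 3 ppm libraries lay under both 30 ppm libraries. Plagl1 (chr10:13090013-13092013, plus strand, 65 CpGs) stood at 68.8%, 60.1%, 59.8% and 53.7%.

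The remaining 4 genes have varied products. Snrpn, a spliceosomal protein of the Prader-Willi locus (30 CpGs), stood at 66.0%, 54.5%, 52.1% and 42.9%, the widest range at 23.1 points. Mest, a protein of the hydrolase fold (88 CpGs), stood at 66.9%, 59.6%, 57.3% and 53.3%, in the same library order as Snrpn and Plagl1. Peg10, derived from a retrotransposon and required in the placenta (chr6:4746406-4748406, plus strand, 89 CpGs), stood at 61.9%, 69.9%, 63.6% and 62.6%. Impact, an inhibitor of the GCN2 stress kinase (32 CpGs), stood at 71.4%, 74.8%, 60.04% and 66.7%, the highest mean of the 4 libraries at 68.2%, though Zrsr1, Peg10 and Airn were higher in KO at 3 ppm.

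**Figure D1:**
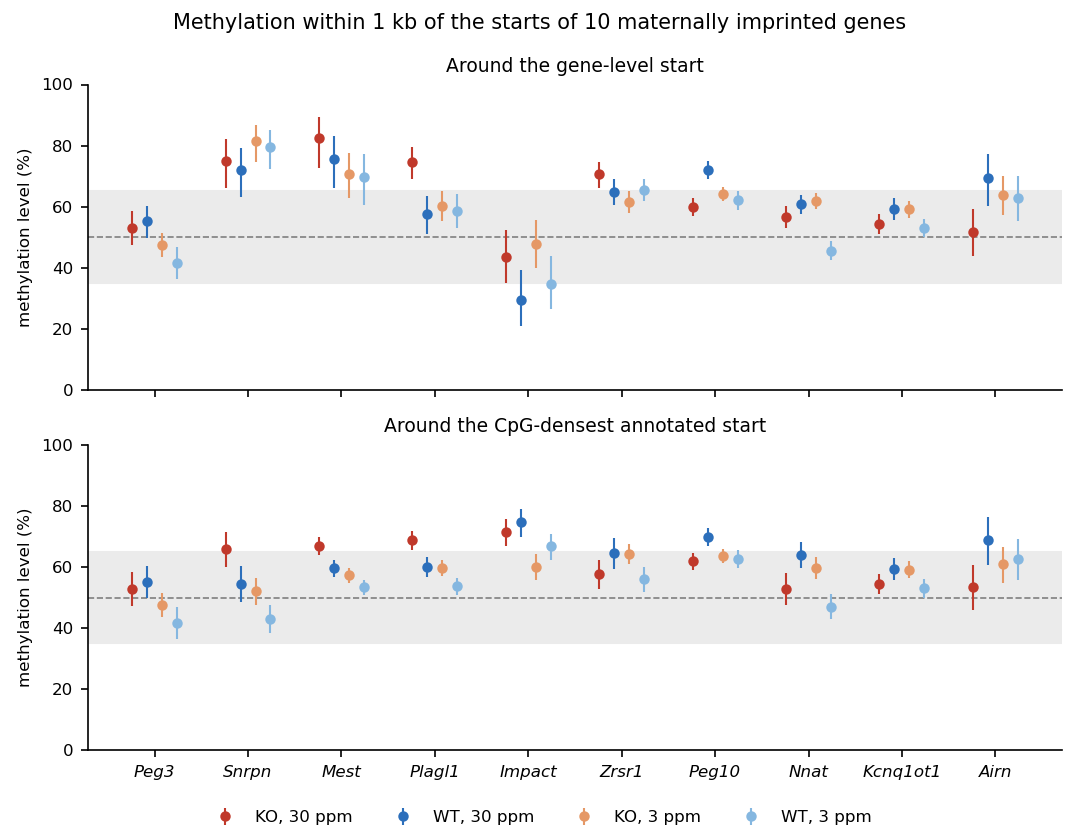
Methylation level (%) of the 10 promoters in each library, around the gene-level starts and around the CpG-densest starts. Points are levels, bars are Wilson 95% intervals of counting, the dashed line is 50% and the grey band 35 to 65%. Around the CpG-densest starts the levels ran from 41.5% (Peg3, WT3) to 74.8% (Impact, WT30).

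Set against the 50% of an intact imprint, the promoters lay near or above it, not at the extremes. No window of the 10 was under 20% or over 80% in all 4 libraries around either start. Around the CpG-densest starts 5870 of all 48425 windows were under 20% and 20275 over 80% in all libraries. Around the CpG-densest starts the median of the 10 genes was 59.7% in KO30, 62.0% in WT30, 59.8% in KO3 and 53.5% in WT3. The Wilson 95% interval lay wholly above 50% at 7, 8, 8 and 7 genes in that order, and wholly below it at 0, 0, 0 and 2 genes, those 2 being Peg3 (41.5%, 36.3 to 47.0%) and Snrpn (42.9%, 38.3 to 47.6%). In WT3 only the interval of Nnat, 42.9 to 51.0%, held 50%. Intervals cover counting error only, and since neighbouring CpGs on a read are counted separately they are too narrow.

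Counting genes at 35 to 65% in all 4 libraries, Peg3, Zrsr1, Nnat and Kcnq1ot1 qualified around the CpG-densest starts, where the background over all windows was 6.62%. For the gene-level starts it was 3 of 10 (Peg3, Nnat and Kcnq1ot1), beside 6.83% of all windows. Over every annotated transcript start, 6 of the 10 genes had at least 1 in the band, namely Peg3, Mest, Impact, Zrsr1, Nnat and Kcnq1ot1, where 9.8% of 48616 genes had one and 7.18% of 121700 single transcript starts were in the band. The 10 genes had 1 to 11 scored starts with a median of 5, and all genes a median of 1, so the 2 counts are not alike in how often a gene was scored. The other 6 genes around the CpG-densest starts left the band upward, in at least 1 library. By library, 6 genes were in the band in KO30, 7 in WT30, 10 in KO3 and 9 in WT3.

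At the gene-level starts of Snrpn, Mest and Plagl1 the levels were mostly higher. Snrpn stood there at 75%, 72.0%, 81.4% and 79.5% over 8 CpGs, and Mest at 82.5%, 75.8%, 70.7% and 69.6% over 7 CpGs. Plagl1 (chr10:13059504-13061504) stood at 74.7%, 57.5%, 60.4% and 58.8%. Impact was lower at its gene-level start, at 43.4%, 29.3%, 47.8% and 34.8% over 11 CpGs, with both KO libraries above both WT libraries.

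A mean near 50% can come from CpGs that are each intermediate or from a mixture of full and empty CpGs, and the single CpGs tell these apart. Summed over the libraries, a median of 98.9% of the CpGs in the 10 windows lay at 25 to 75%. The share was 100% at Peg3, Snrpn, Mest, Peg10 and Airn, and lowest at Impact, with 28 of 32 CpGs (87.5%). Not 1 CpG in any of the 10 windows was under 25%. Among the 6394 windows with a mean of 35 to 65% the median share was 28.6%, and 18.8% of those windows had more than 50% of their CpGs in that range, as all 10 imprinted promoters did. Around the gene-level starts 8 of the 10 did.

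**Figure D2:**
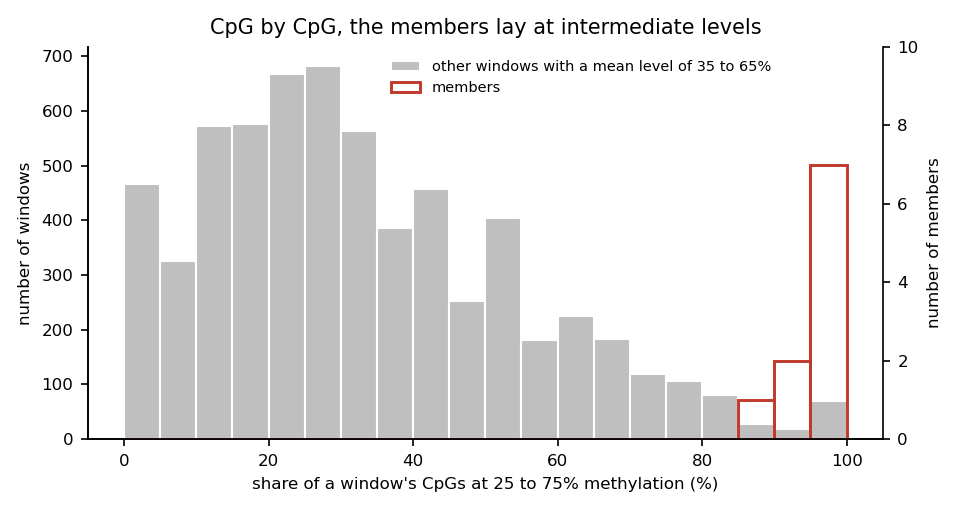
Share (%) of CpGs at 25 to 75% per window, for other windows with a mean level of 35 to 65% (left axis, number of windows) and the 10 imprinted promoters (right axis, number of genes). The 10 promoters sit from 87.5% upward, with 7 of them at 95 to 100%, whereas the other windows spread over the whole range.

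With distance from the start the level rose, unevenly between genes. Within 1 kb of the CpG-densest start the median of the 10 genes' mean levels was 59.9%, from 1 to 2.5 kb it was 62.5%, and from 2.5 to 5 kb it was 81.8%. Over all windows within 1 kb of such starts the median was 79.9%, and the flanks of other genes were not scored. Airn went from 61.5% to 77.3% and then 90.9% over these distances, and Zrsr1 from 60.6% to 69.4% and 88.9%. Mest was flatter, at 59.3%, 51.1% and 65.5%. At 2.5 to 5 kb the median KO minus WT differences under the excess and control diets were 2.18 and 0.67 points.

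**Figure D3:**
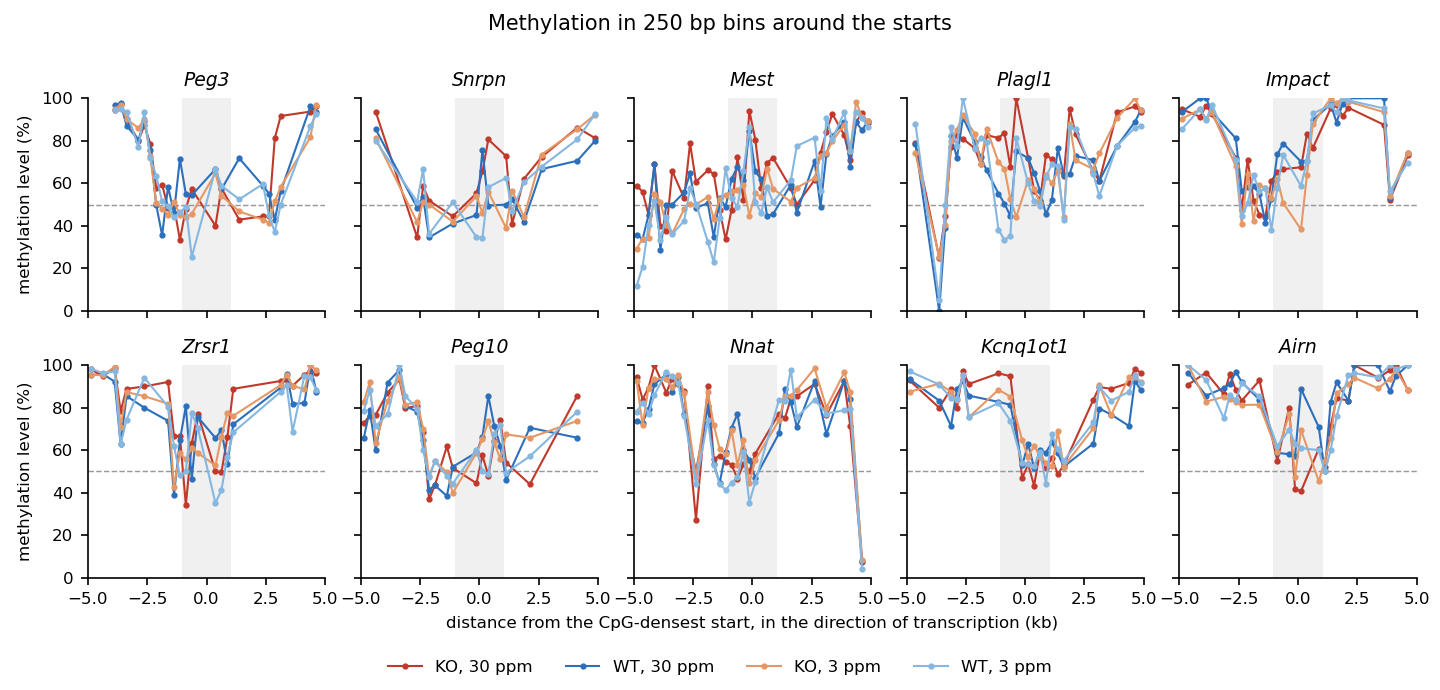
Methylation level (%) in bins of 250 bp within 5 kb of the CpG-densest start of each of the 10 genes, 1 line per library, with the scored 1 kb on each side shaded. Single bins scatter widely, with 44.8 to 94.1% at Mest in the bin just upstream of the start and 0 to 25.3% at Plagl1 in a bin 3750 to 3500 bp upstream. Over wider distances the mean level reaches 90.9% at Airn and 65.5% at Mest at 2.5 to 5 kb.

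KO minus WT at 30 ppm was tested per window by Fisher's exact test on reads, two-sided, with Benjamini-Hochberg adjustment over all windows; a call needed an adjusted p under 0.05 and at least 10 points. Around the CpG-densest starts 2 of the 10 genes were called, where 9.85% of all windows were. Both were lower in KO, with differences of -15.6 points at Airn (95% interval -26.0 to -4.55, adjusted p = 0.0491) and -11.0 points at Nnat (-17.7 to -4.18, adjusted p = 0.0166). Another 3 genes had adjusted p-values under the threshold with smaller differences: Plagl1 at 8.75 points and Mest at 7.24 points were higher in KO, and Peg10 at -8.07 points was lower. Both directions turned under other settings. KO minus WT became 9.46 points at Airn and 11.3 points at Nnat with at least 10 reads per CpG. It became 8.54 points at Nnat with windows of 500 bp and 2.36 points at Airn with 1 CpG per 500 bp. At that last setting none of the 9 genes scored was called, beside 1 of all 38496 windows (0.0026%). The absence of calls there is thus not particular to these genes. Snrpn was 11.45 points higher in KO with an adjusted p of 0.0545. With the libraries thinned to the mean depth of KO30, none of the 10 genes was called around these starts. The share over all windows was not taken there, so this count has no background.

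Windows with similar levels give a second background. Among the 6394 windows with a mean of 35 to 65%, 27.9% were called at 30 ppm, of which 1750 of 1786 were higher in KO, and their median difference was 7.57 points. That mean takes in both KO libraries, so a window low in WT can enter through a higher level in KO. The share higher in KO is therefore in part set by the choice of windows. Over the 10 genes the median was -4.19 points with 3 above 0, beside a median of 2.43 points and 34330 of 48425 windows above 0 overall. The sign of the genes' median depended on the setting: it was 5.38 points with 6 of 10 above 0 with at least 10 reads per CpG, 0.60 points with 5 of 9 with 1 CpG per 500 bp, and 0.36 points with 5 of 10 around the gene-level starts. Around the gene-level starts 3 of 10 genes were called, beside 9.3% of all windows. There KO minus WT was -12.1 points at Peg10 (adjusted p = 3.08e-06) and -17.8 points at Airn (adjusted p = 0.0345), while at Plagl1 KO was higher by 17.2 points (adjusted p = 0.00112), all by Fisher's exact test. Here too the sign turned at Airn, to 9.46 points with at least 10 reads per CpG and 2.36 points with 1 CpG per 500 bp, and at Peg10, to 10.7 points with 1 CpG per 500 bp, while at Plagl1 it did not turn under these settings.

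KO minus WT at 3 ppm was called at Nnat alone, and there in the opposite direction. Its CpG-densest window was 12.9 points higher in KO (7.36 to 18.2, adjusted p = 0.00011), where 10% of all windows were called. At its gene-level start the difference was 16.3 points (12.3 to 20.3, adjusted p = 9.84e-13, Fisher's exact test), beside 9.54% of all windows. The call around the CpG-densest start was lost with at least 10 reads per CpG (10.2 points), windows of 500 bp (8.86 points) and 1 CpG per 500 bp (10.4 points). Snrpn at 9.20 points, Zrsr1 at 8.22, Kcnq1ot1 at 6.13 and Plagl1 at 6.05 were also higher in KO with an adjusted p under the threshold but under 10 points. At 3 ppm 8 of the 10 differences were above 0, with a median of 5.99 points. All windows had a median of 1.33 points. Those with a mean of 35 to 65%, again chosen on a mean that takes in both KO libraries, had a median of 7.14 points and 31.3% called.

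A Wald test asked if the KO minus WT difference depended on diet, through the difference of log odds ratios. Nnat passed around both starts, with a difference of -23.8 points around the CpG-densest start (adjusted p = 0.000187) and -20.5 points around the gene-level start (adjusted p = 9.28e-07). Peg10 passed around the gene-level start, with -14.3 points (adjusted p = 0.00108), but not around the CpG-densest start, where it was -9.09 points (adjusted p = 0.0798). With at least 10 reads per CpG no gene passed around the gene-level starts, and no share over all windows was taken at that setting. Around the CpG-densest start of Nnat, KO minus WT under the excess and control diets was then 11.3 and 10.2 points, and with windows of 500 bp 8.54 and 8.86 points, so the 2 diets no longer differed in sign. The 500 bp window covers less sequence. It leaves out chr2:157560009-157560208, where the values were -8.20 and 30.3 points, and chr2:157560209-157560408, where they were -30.9 and 7.26 points. It keeps chr2:157561009-157561208, where they were 12.6 and 12.8 points. Also kept are chr2:157560609-157560808, at -5.58 and 8.18 points, and chr2:157561209-157561408, at 8.58 and -6.82 points. Why the signs turned under either setting was not tested. Over all windows 0.938% passed around the CpG-densest starts and 0.893% around the gene-level starts.

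The diets were then compared within a genotype. In KO, Snrpn was 13.9 points higher at 30 ppm than at 3 ppm (6.44 to 21.1, adjusted p = 0.0375, Fisher's exact test) and Impact 11.4 points higher (5.13 to 17.4, adjusted p = 0.0465), where 0.684% of all windows were called. Mest at 9.62 points (adjusted p = 0.000901, Fisher's exact test) and Plagl1 at 9.08 points (adjusted p = 0.00582) fell just short of 10 points. With 1 CpG per 500 bp the difference at Impact became -8.84 points. No gene was called for diet in KO with windows of 2.5 kb or with at least 10 reads per CpG, settings without a share over all windows. The other 6 genes ran from -7.48 points (Airn) to 5.48 points (Peg3), and 5 of the 10 differences were above 0. By gene-level start Plagl1 was called, at 14.3 points (6.99 to 21.3, adjusted p = 0.0291, Fisher's exact test), beside 0.639% of all windows.

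In WT, all 10 promoters had a higher level at 30 ppm than at 3 ppm around the CpG-densest starts, by 6.31 points (Airn) to 16.98 points (Nnat), with a median of 7.70 points. Of all windows, 22296 of 48425 were above 0 and the median was -0.32 points. Nnat alone was called (11.0 to 22.8, adjusted p = 8.74e-05, Fisher's exact test), where 0.562% of windows were. That call was lost with windows of 2.5 kb (9.597 points), with windows of 500 bp (1.002 points), with at least 10 reads per CpG (1.88 points) and with 1 CpG per 500 bp (0.63 points). Peg3 at 13.7 points had an adjusted p of 0.0558 and Snrpn at 11.7 points one of 0.142. Around the gene-level starts 6 of the 10 were above 0, and Nnat was again called, at 15.2 points (adjusted p = 1.55e-07, Fisher's exact test), beside 0.527% of all windows. This call too was lost with windows of 2.5 kb and with 1 CpG per 500 bp. With 1 covered CpG kept per 500 bp, so that few CpGs share a read, 5 of 9 scored genes were above 0 around the CpG-densest starts with a median of 0.63 points. These comparisons share libraries: WT3, the lowest library at 7 of the 10 genes, enters both the diet comparison in WT and KO minus WT at 3 ppm.

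limma was the only test whose error was not counting alone, with 1 residual degree of freedom per window before moderation. With 1 embryo per group that residual is the difference between the diets in KO minus WT. Variation between embryos and a dependence on diet cannot be told apart in it. limma fitted genotype with diet as a covariate and called none of the 10 genes around either start. It called 2.62% of all windows around the gene-level starts and 4.28% around the CpG-densest starts. At an unadjusted p under 0.05 it had Impact, at a log2 ratio of 0.81 (SE 0.29, adjusted p = 0.181 by limma), around the gene-level start, beside 18.8% of all windows, and none of the 10 around the CpG-densest starts, beside 19.8%. Fisher's exact test, which takes reads as independent, called 2 and 1 of the 10 for KO against WT at 30 and 3 ppm around the latter. The diet term of limma called no window around either start, with 2269 of 48389 gene-level windows at an unadjusted p under 0.05. Around the CpG-densest starts 2335 of 48425 windows were, Snrpn among them at a log2 ratio of 0.75 (SE 0.30, adjusted p = 1.0 by limma).

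Within the windows the libraries differed over shorter distances than 1 kb. In blocks of 200 bp with at least 3 covered CpGs, chosen after seeing the data, the 10 genes had 55 blocks. The median range over the 4 libraries was 22.9 points, and it passed 30 points in 18 blocks (32.7%). Other genes' blocks with a mean of 35 to 65% had a median range of 21.3 points, with 27.6% of 13487 blocks past 30 points. They held fewer reads, with a median of 60 per library against 99, so counting error adds more to their range. With at least 40 reads per block in every library, 28.2% of 39 imprinted blocks and 23.2% of 7802 others passed 30 points. As to direction, KO was higher than WT under both diets in 21.8% of the imprinted blocks and in 67.3% of the 13487 other blocks. The latter were chosen on a mean that takes in both KO libraries, so blocks low in WT can enter through a higher level in KO. KO minus WT had opposite signs under the 2 diets in 33 of the 55 imprinted blocks (60%), 22 of them lower at 30 ppm and higher at 3 ppm, and in 24.95% of the other blocks. In the other blocks KO minus WT had medians of 12.9 and 10.9 points at 30 and 3 ppm, so equal signs are frequent among them. Blocks that lean to neither genotype often have opposite signs, and the share does not measure a dependence on diet. With at least 40 reads per block in every library the shares with opposite signs were 61.5% of 39 imprinted blocks and 24.5% of 7802 others. Under the same filter on the mean, 57.8% of 45 imprinted blocks had opposite signs and 24.4% were higher in KO under both diets. Over all 142086 blocks, whatever their level, the shares were 35.2% and 42.3%. Blocks of a gene share fragments and are not replicates, so no test was made of these shares.

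**Figure D4:**
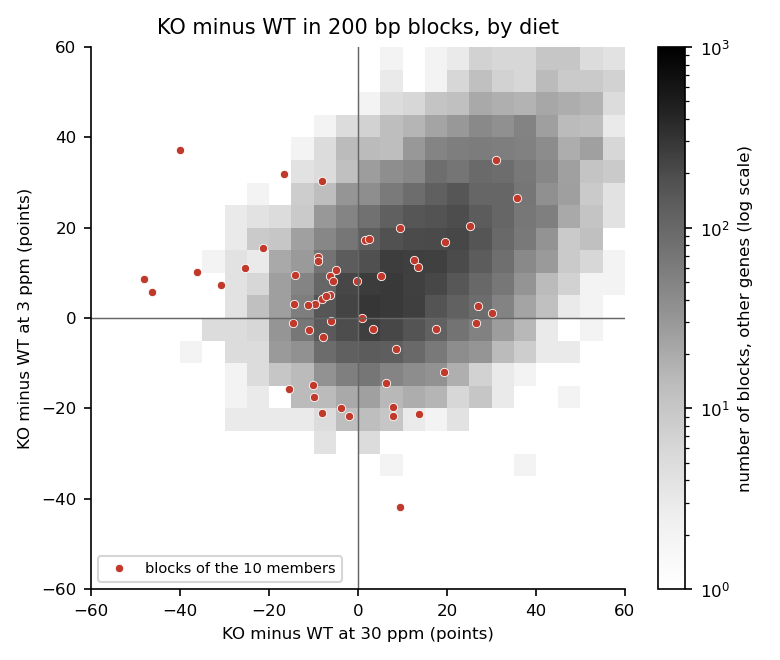
KO minus WT (percentage points) at 30 ppm against KO minus WT at 3 ppm in blocks of 200 bp. Red points are the 55 blocks of the 10 imprinted promoters, and the grey shading (log scale) counts other genes' blocks with a mean level of 35 to 65%. The shading centres on positive values on both axes (medians 12.9 and 10.9 points), while the red points scatter around 0 (medians -5.58 and 4.80 points).

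The authors deposited lists of differentially methylated regions (DMRs), which were used here for their positions only. Of the 10 windows around the CpG-densest starts 8 overlapped a listed region (all but Kcnq1ot1 and Impact), where 3.47% of all windows did. By gene-level start it was 5, beside 3.16% of all windows. Among windows with a mean of 35 to 65% and no imprinted gene of the lists used here the share was 11.1% around the CpG-densest starts. Regions listed for a difference between the diets overlapped 6 of the 10 windows, as against 0.150% of all windows and 0.283% of those with an intermediate mean. By gene-level start it was 3 of 10, as against 0.135% and 0.275%. Each list compares single libraries, so the regions differ between libraries and not between conditions. Around the CpG-densest starts the 10 windows had a median of 41 covered CpGs, and a median of 98.9% of them at 25 to 75%. Windows with a mean of 35 to 65% had medians of 20 and 28.6%. These sets are thus not alike in the CpGs that could enter a region, and the shares were not matched for this.

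The lists were also read from their own side. Of 79 regions higher at 30 ppm in WT, 4 lay at the 10 genes and 9 (11.4%) at any of 46 imprinted genes considered. This list overlapped 3 of the 10 windows around the CpG-densest starts, beside 0.0742% of all windows. Of 54 regions lower in KO at 30 ppm, 3 lay at the 10 genes and 5 (9.26%) at any of the 46. This list overlapped 2 of the 10 windows, beside 0.0234% of all windows. Of 4436 regions higher in KO at 30 ppm, 5 (0.113%) lay at the 10 genes, and of 4437 at 3 ppm, 1 (0.0225%). These lists overlapped 4 and 1 of the 10 windows around the CpG-densest starts, beside 2.07% and 2.45% of all windows. The other lists held 1 of 57 (lower in KO at 3 ppm), 3 of 139 (higher at 30 ppm in KO), 0 of 77 (lower at 30 ppm in KO) and 1 of 65 (lower at 30 ppm in WT) at the 10 genes. In that order they overlapped 1, 3, 0 and 1 of the 10 windows, beside 0.00976%, 0.0605%, 0.0137% and 0.0137% of all windows.

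Because these regions were listed for a difference between these very libraries, their levels below are a description with no test. They are shown with their sequence to place the listed differences within the promoters. Each sequence is the plus strand of GRCm38, 5′ to 3′, with the CGs covered by at least 5 reads in all 4 libraries in capitals. Those of Plagl1, Mest and Airn are the first 300 bases of a longer region.
Peg10, chr6:4747624-4747835: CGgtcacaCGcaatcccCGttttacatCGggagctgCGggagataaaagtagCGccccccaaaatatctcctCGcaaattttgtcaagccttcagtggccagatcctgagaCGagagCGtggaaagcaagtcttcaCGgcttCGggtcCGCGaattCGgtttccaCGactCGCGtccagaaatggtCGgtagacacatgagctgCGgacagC
Airn, chr17:12741330-12741629: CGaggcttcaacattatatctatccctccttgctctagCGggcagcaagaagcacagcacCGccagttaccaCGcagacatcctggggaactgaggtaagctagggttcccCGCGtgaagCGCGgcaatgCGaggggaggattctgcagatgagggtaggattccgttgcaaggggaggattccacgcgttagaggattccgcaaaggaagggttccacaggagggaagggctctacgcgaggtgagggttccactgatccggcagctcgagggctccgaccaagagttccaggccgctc
Mest, chr6:30737888-30738187: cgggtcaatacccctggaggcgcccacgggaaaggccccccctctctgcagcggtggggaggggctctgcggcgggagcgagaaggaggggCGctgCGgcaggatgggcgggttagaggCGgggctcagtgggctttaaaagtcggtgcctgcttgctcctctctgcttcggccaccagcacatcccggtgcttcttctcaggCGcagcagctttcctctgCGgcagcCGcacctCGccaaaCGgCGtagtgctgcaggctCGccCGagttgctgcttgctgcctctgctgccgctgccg
Plagl1, chr10:13089786-13090085: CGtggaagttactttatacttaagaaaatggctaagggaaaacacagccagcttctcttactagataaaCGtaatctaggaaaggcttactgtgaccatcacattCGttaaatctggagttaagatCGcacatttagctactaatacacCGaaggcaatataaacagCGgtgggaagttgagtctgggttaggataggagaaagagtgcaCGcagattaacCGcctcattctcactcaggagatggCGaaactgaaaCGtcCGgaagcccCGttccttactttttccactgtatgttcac

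The Peg10 region spans 212 bp of intron, 218 to 429 bp downstream of the CpG-densest start, and held 20 CpGs. Its levels were 42.8% in KO30, 82.8% in WT30, 76.6% in KO3 and 44.5% in WT3. So WT was the high library at 30 ppm and KO the high one at 3 ppm: all 20 CpGs were lower in KO than in WT at 30 ppm, and 19 of 20 were higher in KO at 3 ppm. The other 69 CpGs of the window stood at 67.7%, 67.1%, 60.3% and 68.0%, with no such alternation. The reads behind each CpG averaged 12.9, 8.7, 19 and 11.45, and over so short a region the CpGs share the same fragments.

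The Airn region spans 420 bp at the start of Airn, 95 of them exonic, within an intron of Igf2r. It stood at 41.2%, 80.9%, 64.9% and 61.4% over 9 CpGs. All 9 were lower in KO than in WT at 30 ppm, though the WT library had 5.22 reads per CpG there. The other 9 CpGs of the window differed little, at 63.3%, 62.2%, 57.6% and 63.6%.

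The Mest region covers 344 bp around the CpG-densest start, 182 of them exonic. It stood at 88.0%, 73.5%, 48.6% and 59.0% over 15 CpGs, and all 15 were higher at 30 ppm than at 3 ppm in KO. The other 73 CpGs stood at 64.1%, 57.8%, 58.2% and 52.4%.

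Plagl1 differed from these. Its region lies in an intron, 1227 to 891 bp upstream of the CpG-densest start, and was listed as higher in KO under both diets. Most of it lies beyond the edge of the 1 kb window, which holds 5 of its 13 CpGs. Over 13 CpGs it stood at 82.6% in KO30, 54.5% in WT30, 68.0% in KO3 and 35.04% in WT3, with 15.5 to 26 reads per CpG. All 13 CpGs were higher in KO than in WT under either diet. The 60 CpGs of the window outside the region stood at 67.3%, 60.9%, 59.0% and 55.7%.

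At Impact a listed region of 205 bp lies at the gene-level start, with 5 CpGs at 50%, 6.67%, 44.6% and 26.4%, all 5 higher in KO under both diets, and is apart from its CpG-densest promoter. At Snrpn a region of 579 bp held 4 covered CpGs at 60%, 34.5%, 47.5% and 73.8%, from 20 to 42 reads. The regions listed at Peg3 and Zrsr1 held no CpG with 5 reads in all 4 libraries, so no level is given.

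**Figure D5:**
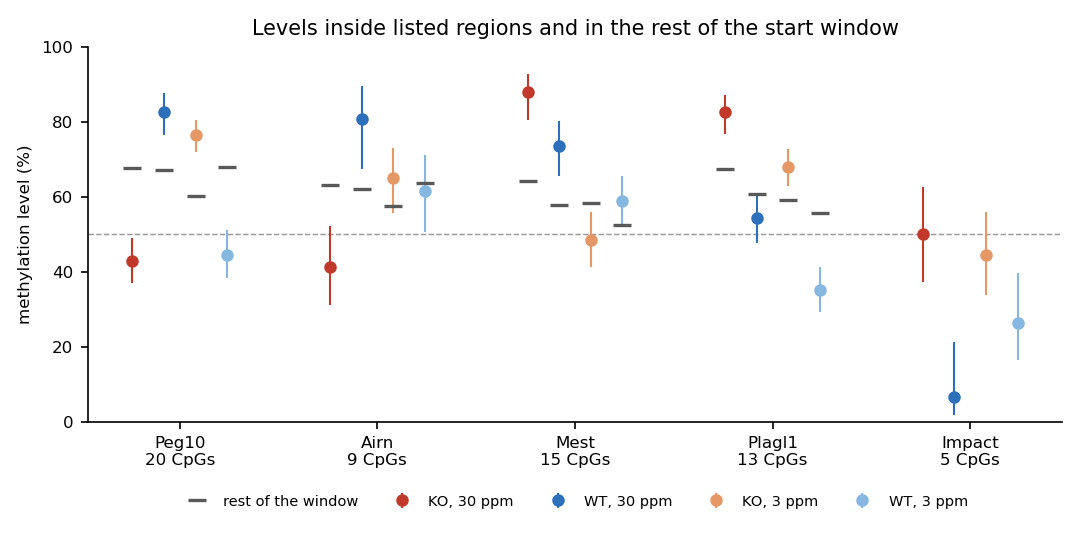
Methylation level (%) of 5 listed regions at Peg10, Airn, Mest, Plagl1 and Impact in each library. Dots are the region with Wilson 95% intervals of counting, and short bars are the rest of the 1 kb window (not drawn for Impact). The Plagl1 region lies mostly outside its window. Peg10 alternates between 42.8% and 82.8%, while Plagl1 has both KO libraries above both WT libraries.

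The genes around these promoters were counted from lists by name. Of 23 other genes in the same imprinted domains, 7 lay at 35 to 65% in all libraries around the CpG-densest starts, and 3 were called higher and 2 lower in KO at 30 ppm, with 4 higher and 0 lower at 3 ppm. Over all windows 6.62% were in the band, and 9.85% and 10% were called at 30 and 3 ppm. Sgce, whose window overlaps that of Peg10, stood at 57.4%, 71.6%, 64.2% and 59.2% and was the 1 partner that passed the test of the difference between diets (-19.2 points). Snurf shares the Snrpn window and Usp29 that of Peg3, so their values repeat those of the pair. The Commd1 window overlaps that of Zrsr1, and Commd1 and Usp29 are among the 7 in the band. Phlda2, which restrains growth of the placenta and lies in the Kcnq1ot1 domain, was low in WT and higher in KO under both diets, at 24.8%, 6.04%, 23.4% and 4.73%. Kcnq1, a potassium channel of the same domain, stood at 49.8%, 27.8%, 49.2% and 30.2%.

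Of 9 other genes listed by name for maternal germline imprints, 2 were in the band in all libraries. In KO 2 were called higher at 30 ppm and 1 at 3 ppm, and 2 were higher at 30 ppm in WT. The shares over all windows were 6.62%, 9.85%, 10% and 0.562%. The CpG-densest start of a listed gene need not be its imprinted promoter. The H13 window (chr2:152668486-152670486) lies apart from that of Mcts2 (chr2:152686035-152688035). The Trappc9 window (chr15:73060050-73062050) lies apart from that of Peg13 (chr15:72809324-72811324). The count in the band is therefore not a count of intact imprints. Peg13 (57.3%, 64.0%, 63.0% and 53.7%) and Nespas passed the test of the difference between the diets, at -15.9 and -12.3 points, beside 0.938% of all windows. Grb10, a signalling adaptor, was the gene called higher in KO under both diets, at 21.6%, 7.01%, 18.99% and 7.32%. Its CpG-densest window, of 222 reference CGs, was thus low in all libraries. These are not the levels of an imprint, and the window may lie apart from the imprinted promoter. Of 4 genes at paternal imprints, Meg3 was the 1 in the band, at 55.9%, 58.1%, 42.8% and 46.1%, and was higher at 30 ppm in both genotypes. Over all windows 6.62% were in the band, and 0.684% and 0.562% were called for diet in KO and WT. None of 6 imprint maintenance factors (Zfp57, Zfp445, Trim28, Dppa3, Dnmt1 and Uhrf1) was called in any pair. KO against WT was called in 9.85% and 10% of all windows at 30 and 3 ppm. With shares this low, the absence of calls among 6 genes does not set these factors apart.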

How the data were processed

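Genomic DNA of 4 embryonic brains was bisulfite sequenced. The authors trimmed reads with Trim Galore (version 0.6.10), aligned them to mm10 with Bismark (0.23.1), removed duplicates, merged strands and deposited, per CpG, the methylation level as a fraction and the count of covering reads. Methylated reads are the product of both, whole to within 4.37e-11. Deposited positions count from 0, and 1 was added, after which all listed autosomal positions fell on a reference CG. The deposited DMR lists were used for positions only, and the authors' statistics in them were not used. The members, lists and tests were chosen with earlier results of these data known. All 10 members are named, and genes of the other lists where called in any pair.

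CpGs needed at least 5 reads in all 4 libraries (14907672 autosomal CpGs), and windows 3 CpGs. Levels carry Wilson 95% intervals, which cover counting error only. Pairs of libraries were compared by Fisher's exact test (scipy 1.17.1), two-sided, with Benjamini-Hochberg adjustment, and called at an adjusted p under 0.05 and at least 10 points. The difference of KO minus WT between diets was tested by a Wald test on log odds ratios (0.5 added per count). limma (3.58.1, R 4.3.3) was fitted to log2 ratios of methylated to unmethylated reads with 1 added. Scripts were tested on simulated data. The Impact sequence and several listed regions are not reported here.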

Additional observations from a re-analysis of the deposited data

Results flagged for a closer look

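In 3 cases the KO minus WT difference of an imprinted promoter was not the same under the 2 diets, by a Wald test of the difference itself in these 4 libraries. For Nnat the difference at 30 ppm minus that at 3 ppm was -20.5 points around the gene-level start and -23.8 points around the CpG-densest start. For Peg10 it was -14.3 points around the gene-level start. At the settings of the report KO was below WT at 30 ppm and above WT at 3 ppm in both genes. The sign at 30 ppm turned for Nnat around the CpG-densest start (11.3 points with at least 10 reads per CpG, 8.54 with windows of 500 bp) and for Peg10 (10.7 points with 1 CpG per 500 bp), and around the gene-level starts 0 genes passed with at least 10 reads. The 2 Nnat windows overlap and share CpGs. Each group was 1 embryo, and no group was searched for a sample far from its peers.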

How the results depend on the processing

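No paired analysis was possible because each group had 1 library, and no replicate could be left out for the same reason. Counts below are of the 10 genes, given for gene-level starts and then CpG-densest starts where both moved; in the report 3 and 2 were called for KO against WT at 30 ppm, 1 and 1 at 3 ppm, 1 and 2 for diet in KO, 1 and 1 for diet in WT, and 2 and 1 by the Wald test. With 1 CpG per 500 bp (8 and 9 genes scored) every count of the 4 pairs was 0, and at most 0.138% of all windows were called in any pair. At the settings that follow no share over all windows was taken for the pairs or the Wald test. A change in those counts therefore cannot be told apart from a change in calls over all windows. With windows of 2.5 kb the calls were 0 and 0 for diet in KO, 0 and 0 for diet in WT, 2 (gene-level) at 3 ppm and 3 by the Wald test (CpG-densest). limma then called 1, Plagl1 (gene-level), where it called 5.69% of all windows. With windows of 500 bp they were 2 and 2 for diet in WT, 3 (gene-level) at 3 ppm and 1 (CpG-densest) at 30 ppm, 2 genes were in the band (3 over transcript starts) and 5 overlapped a DMR. With at least 10 reads they were 0 and 0 for diet in KO, 2 for diet in WT and 1 at 30 ppm (both CpG-densest), and 0 by the Wald test (gene-level). With no coverage minimum they were 0 and 1 for diet in KO and 3 by the Wald test (CpG-densest). Thinned to the mean depth of the KO library at 30 ppm they were 0 and 1 for diet in KO and 0 at 30 ppm (CpG-densest). With a minimum of 5 points they were 4 for diet in KO and 5 at 30 ppm (CpG-densest), 2 for diet in WT, and 2 and 5 at 3 ppm. A band of 30 to 70% held 9 genes (10 over transcript starts) and one of 40 to 60% held 2 (3 over transcript starts). The other 66 counts stayed within 1.5 times.

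The 12 called differences were recomputed under 8 settings each; of these values 49 kept the direction and the call, 39 kept the direction only and 8 changed sign. KO minus WT at 30 ppm became positive for Airn with at least 10 reads (9.46 points around either start) and with 1 CpG per 500 bp (2.36), for Peg10 with 1 CpG per 500 bp (10.7), and for Nnat around the CpG-densest start with at least 10 reads (11.3) and with 500 bp windows (8.54). Diet in KO at Impact became -8.84 points with 1 CpG per 500 bp. The cause was not tested. The higher level at 30 ppm in WT around the CpG-densest starts held in 8 to 10 of 10 genes under the other settings and in 5 of 9 with 1 CpG per 500 bp. Depth, at a mean of 13.2 to 21.2 reads per CpG, limits what single CpGs and short regions show.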

Other observations

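Of the 6 imprint maintenance factors 3 lay at 35 to 65% in all libraries around the CpG-densest starts, beside 6.62% of all windows. Dnmt1, the maintenance methyltransferase, stood at 53.4% in KO30, 53.4% in WT30, 49.2% in KO3 and 48.2% in WT3, from 9 of 88 CGs. The mean over those single CpGs was 34.3 to 41.7%, and the gene-level start of Dnmt1 stood at 87.5 to 92.9%. Zfp57 stood at 58.7%, 58.7%, 51.1% and 47.5%, and Zfp445 at 43.6%, 44.9%, 39.1% and 47.1%. Around the gene-level starts Zfp445 alone was in the band.

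Among genes of the imprinted domains, Slc22a3, an organic cation transporter silenced by Airn in the placenta, was 16.5 points higher in KO at 3 ppm (adjusted p = 3.95e-05, Fisher's exact test), and Mkrn3, of the Prader-Willi locus, was lower in KO at 30 ppm, with a difference of -13.1 points (adjusted p = 0.0117). Inpp5f, listed for a maternal imprint, was 16.7 points higher in KO at 30 ppm (adjusted p = 0.00552, Fisher's exact test). Copg2, next to Mest, was 15.8 points higher in KO at 3 ppm (adjusted p = 0.00417, Fisher's exact test), and Nap1l5, at a maternal imprint, 10.2 points higher at 30 ppm in WT (adjusted p = 0.00341). Snurf was 12.6 points higher in KO at 30 ppm and 14.8 points higher at 30 ppm in KO, and Usp29 13.9 points higher at 30 ppm in WT. Around the gene-level starts 4 more genes were called higher in KO: Calcr under both diets (19.5 and 11.2 points), Blcap (19.8) and Commd1 (14.6) at 30 ppm, and Gnas (14.5) at 3 ppm. At Plagl1 a bin 3750 to 3500 bp upstream of the CpG-densest start, with 4 CpGs, was at 25% and 25.3% in KO at 30 and 3 ppm and at 0% and 5.06% in WT. These values have 1 embryo behind each level, and nothing was tested of their source.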
